A study of Mus musculus with 6 samples.

Results

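The macrophage and neutrophil genes described here are 10 genes, Adgre1, Cd68, Csf1r, C1qa, C1qb, Mrc1, Lyz2, Itgam, S100a8 and S100a9, found by matching the Ensembl identifiers of the count table to their symbols in GENCODE M21. All 10 were among the 34866 genes of the table, and all 10 were among the 16536 that had enough counts to be tested. The RNA came from intestinal adenomas cut out of C57BL/6J mice aged 100 to 120 days that were heterozygous for 1 of 2 truncating alleles of Apc, with 3 libraries from Apc1322T/+ mice and 3 from ApcMin/+ mice. The Apc1322T truncation is the longer one and keeps part of the ability to bind beta-catenin, whereas ApcMin acts essentially as a null allele. Frozen tissue was homogenised whole, with no sorting of cells, and a sample usually pooled several RNA extractions of 1 mouse.

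Macrophages and neutrophils are myeloid cells that enter tissue from the blood or, for some macrophages, settle there for long periods. Macrophages of the gut wall depend on signals through the receptor encoded by Csf1r, engulf dead cells and bacteria, and make the complement component C1q. Neutrophils are short-lived cells recruited by chemokines to damaged or infected tissue, and carry large amounts of calprotectin, the dimer of S100a8 and S100a9. In bulk RNA a difference in the number of such cells and a difference in the RNA made per cell cannot be told apart.

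The members fall into 3 groups by what they are known to mark. Adgre1 (the F4/80 antigen), Cd68 (a lysosomal membrane protein), Csf1r (the receptor for Csf1 and Il34), C1qa and C1qb (chains of C1q) and Mrc1 (the mannose receptor CD206) are used as macrophage genes. Lyz2 (lysozyme M) and Itgam (the CD11b chain of a beta2 integrin) are shared by macrophages and neutrophils. S100a8 and S100a9 are most abundant in neutrophils, and are also made by some monocytes and by stressed epithelium. In GRCm38, S100a8 lies at chr3:90668978-90670035 on the plus strand and S100a9 at chr3:90692632-90695721 on the minus strand. C1qa at chr4:136895917-136898803 and C1qb at chr4:136880129-136886187 lie close together on the minus strand. Lyz2 lies at chr10:117277331-117282321, beside Lyz1 at chr10:117287797-117292868, both on the minus strand. Adgre1 is on chromosome 17, Cd68 on chromosome 11, Mrc1 on chromosome 2 and Itgam on chromosome 7.

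A pair of sequences bears on how far the Lyz2 counts can be read. Lyz1 is the lysozyme of Paneth cells, the antimicrobial cells at the base of small intestinal crypts, and its coding sequence of 447 bases was 95.1% identical to that of Lyz2, with 22 differing bases. The first 150 coding bases of each, from GENCODE M21 transcripts, are shown with the 14 bases that differ in this stretch in capitals.
Lyz1: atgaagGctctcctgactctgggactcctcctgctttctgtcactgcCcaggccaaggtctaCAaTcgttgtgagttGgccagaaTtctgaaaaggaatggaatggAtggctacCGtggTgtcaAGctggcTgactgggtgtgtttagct
Lyz2: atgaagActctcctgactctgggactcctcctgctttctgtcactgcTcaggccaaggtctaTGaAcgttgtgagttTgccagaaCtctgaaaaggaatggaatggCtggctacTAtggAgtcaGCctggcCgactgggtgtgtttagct
The reads were 50 bases long, and 15.4% of the 50-base windows of the Lyz2 transcript also occurred in Lyz1. Of the Lyz1 windows, 16.1% occurred in Lyz2. Lyz1 received 14001.9 to 54611.5 counts per library, against 1205.1 to 9314.6 for Lyz2. Reads from the shared windows were divided between the genes by estimation, so the Lyz2 values carry that uncertainty. Itgam shared 66.3% of its 50-base windows with Gm49368, an overlapping gene model on the same strand. Gm49368 received between 0 and 15.9 counts per library, against 129.1 to 871.4 for Itgam. The other 8 members shared no 50-base window with another gene of the table.

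S100a8 and S100a9 had the most similar patterns over the 6 libraries of any pair containing S100a9, as described below, and their start regions are shown for that reason. Each run is the RefSeq window from 250 bases before to 50 bases after the gene start in GRCm38.p6, read along the gene's strand. Capitals mark matches on either strand to the PU.1 core GAGGAA or the C/EBP motif TTGCNNAA, the 2 myeloid factor motifs that were searched, which did not overlap each other.
S100a8, chr3:90668821-90669120, plus strand: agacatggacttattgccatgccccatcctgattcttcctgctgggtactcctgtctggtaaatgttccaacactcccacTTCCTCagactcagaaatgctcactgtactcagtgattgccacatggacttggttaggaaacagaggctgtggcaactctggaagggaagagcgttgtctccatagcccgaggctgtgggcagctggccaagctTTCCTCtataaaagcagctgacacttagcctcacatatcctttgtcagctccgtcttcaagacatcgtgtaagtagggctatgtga
S100a9, chr3:90695672-90695971, minus strand: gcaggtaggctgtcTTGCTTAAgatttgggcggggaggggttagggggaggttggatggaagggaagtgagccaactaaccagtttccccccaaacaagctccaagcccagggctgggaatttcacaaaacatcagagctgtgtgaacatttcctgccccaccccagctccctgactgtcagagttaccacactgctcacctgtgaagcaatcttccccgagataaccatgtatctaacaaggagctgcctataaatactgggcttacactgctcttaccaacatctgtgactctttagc
The S100a8 window held 2 matches to GAGGAA and the S100a9 window none, whereas S100a9 held 1 match to TTGCNNAA and S100a8 none. Of all 32851 start windows in the RefSeq table, 28.3% held GAGGAA and 10.8% held TTGCNNAA, so single matches are common. Windows were given for 7 members, of which Cd68, C1qb, Mrc1, Itgam and S100a8 held GAGGAA, and Cd68 and S100a9 held TTGCNNAA. These letter matches are a description of the windows and were not measured as binding.

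Library totals ran from 23132461 to 33518324 estimated counts, so that 3 counts corresponded to 0.0837 to 0.142 CPM (counts per 1000000 counts of the library total after TMM scaling, the unit of all levels below). The members had from 26 counts (S100a8 in Apc1322T replicate 2) to 9315 counts (Lyz2 in ApcMin replicate 1). By edgeR's quasi-likelihood test after Benjamini-Hochberg correction, 0% of the 16536 genes passed an adjusted p of 0.01, and 1 passed 0.05, while 2495 had an unadjusted p under 0.05. DESeq2 called 194 genes at an adjusted p under 0.01 from the same counts, none of them a member. Summed levels were 11900 to 18000 CPM over 8 epithelial genes, against 143.1 to 552.2 CPM over the 10 members. These sums depend on the genes listed and do not measure the shares of cells.

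Compared per kilobase of exon, the member with the highest median level over the 6 libraries was Lyz2, at 43.7 CPM per kb. That value carries the uncertainty of the reads shared with Lyz1. Next were C1qa at 27.8 and C1qb at 22.95 CPM per kb. S100a9 had a median of 9.14, Cd68 of 5.82, S100a8 of 3.83 and Csf1r of 3.74 CPM per kb. Mrc1 at 2.11, Itgam at 1.91 and Adgre1 at 1.26 CPM per kb were the lowest. Neighbours in this order often overlapped: S100a9 ranged from 4.73 to 83.1 CPM per kb and Cd68 from 4.99 to 13.9 CPM per kb. S100a8 ranged from 1.78 to 31.2 CPM per kb, a range that held all values of Csf1r, from 2.79 to 6.40 CPM per kb. C1qa and C1qb, whose products assemble into the same complex, also overlapped, from 21.7 to 57.4 and from 13.9 to 49.1 CPM per kb.

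All 10 members had a higher fitted level in ApcMin than in Apc1322T adenomas, and none passed an adjusted p of 0.01. The log2 fold changes (ApcMin over Apc1322T) ran from 0.62 to 1.38 with a median of 0.81, beside a median of 0.02 over all tested genes, of which 52.4% were higher in ApcMin. Adjusted p-values of the members ran from 0.307 to 0.651 by the quasi-likelihood test of edgeR, Benjamini-Hochberg adjusted. At an unadjusted p under 0.05, 5 of the 10 members were higher in ApcMin and none lower, beside 7.49% of all genes tested that were higher and 7.6% that were lower at that threshold. The libraries of the genotypes did not overlap for 2 members, C1qa and Mrc1, both higher in ApcMin, beside 11% of all genes that were higher and 9.96% that were lower without overlap. All 10 members had their highest value in ApcMin replicate 1, the library in which 15.2% of all tested genes were highest. Without that library, 8 of 10 members were still higher in ApcMin, none at an unadjusted p under 0.05, and the median log2 fold change was 0.25. Of all genes tested without it, 6.78% were higher and 4.97% lower at that threshold.

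**Figure D1:**
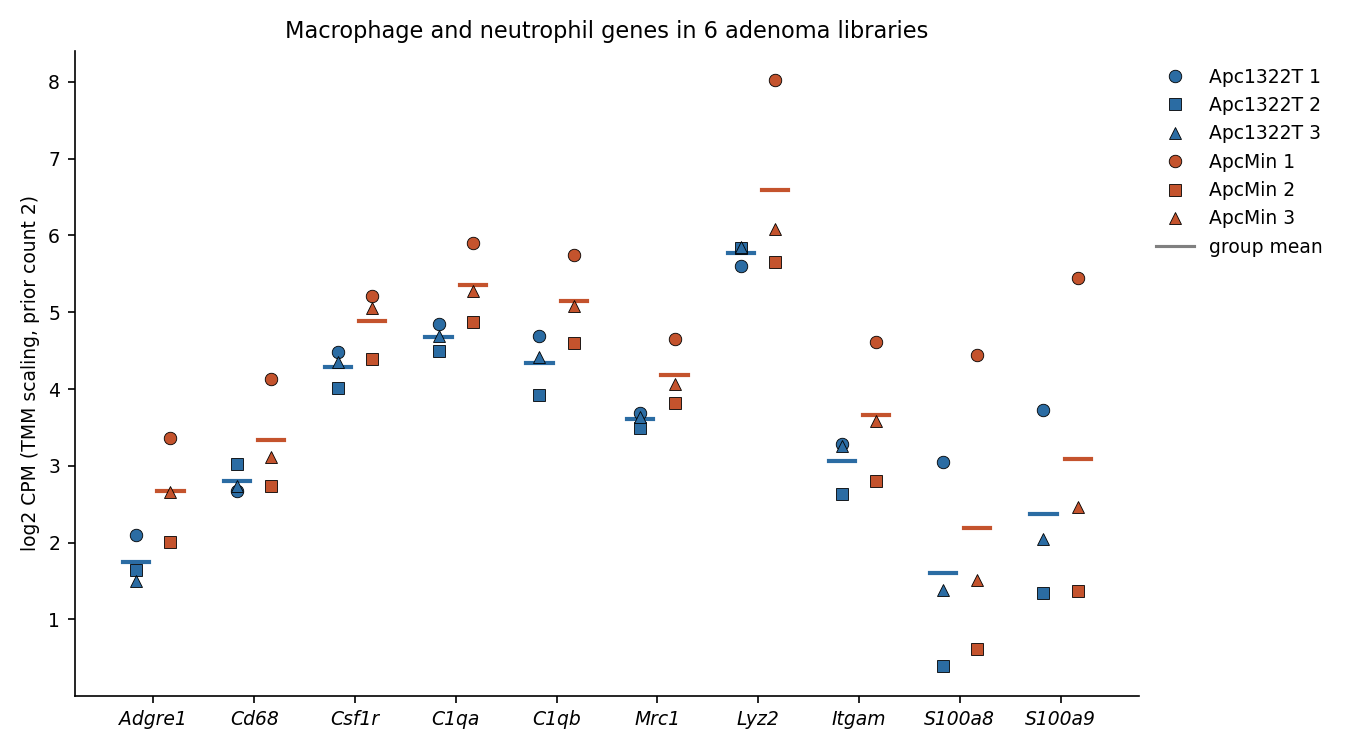
Level of each of the 10 genes in each library, in log2 CPM (TMM scaling, prior count 2), with Apc1322T adenomas in blue, ApcMin adenomas in red, a symbol for each replicate number and a line at each group mean. ApcMin replicate 1 (red circle) is the highest point for every gene, and Apc1322T replicate 1 (blue circle) is the second highest for S100a8 and S100a9, whose points spread over 4.05 and 4.09 log2 units.

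Csf1r, the receptor that macrophages need for survival, was measured at 4.48, 4.02 and 4.35 log2 CPM in Apc1322T replicates 1 to 3 and at 5.21, 4.40 and 5.06 log2 CPM in ApcMin replicates 1 to 3. ApcMin replicates 1 and 3 were above all Apc1322T libraries, and ApcMin replicate 2 lay between Apc1322T replicates 3 and 1. The fold change was 1.56 (log2 0.64 ± 0.23 SE, adjusted p = 0.309 by edgeR quasi-likelihood, Benjamini-Hochberg adjusted). It was the member whose top library stood out least, with ApcMin replicate 1 only 0.16 log2 units above ApcMin replicate 3. Without ApcMin replicate 1 its log2 fold change was 0.47 ± 0.24 SE.

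C1qa, the A chain of the complement protein that tags dying cells and immune complexes, was at 4.84, 4.50 and 4.69 log2 CPM in Apc1322T and at 5.90, 4.87 and 5.28 log2 CPM in ApcMin adenomas. Every ApcMin library was above every Apc1322T library, although the gap between Apc1322T replicate 1 and ApcMin replicate 2 was small. C1qb was at 4.69, 3.92 and 4.41 log2 CPM in Apc1322T and at 5.74, 4.60 and 5.08 log2 CPM in ApcMin. Here ApcMin replicate 2 fell below Apc1322T replicate 1, and the groups overlapped. The log2 fold change was 0.73 ± 0.26 SE for C1qa (adjusted p = 0.308, edgeR quasi-likelihood, Benjamini-Hochberg adjusted). For C1qb it was 0.84 ± 0.33 SE, and 0.48 ± 0.26 SE without ApcMin replicate 1. The C1qa to C1qb ratio stayed within 0.42 log2 units over the 6 libraries, so the 2 chains followed each other closely.

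Mrc1, an endocytic receptor typical of resident tissue macrophages, was at 3.68, 3.50 and 3.63 log2 CPM in Apc1322T and at 4.65, 3.82 and 4.06 log2 CPM in ApcMin adenomas. Its Apc1322T libraries lay within 0.19 log2 units of each other, the narrowest spread of any member, and all ApcMin libraries were above them. The fold change was 1.53 (log2 0.62 ± 0.22 SE, adjusted p = 0.307 by edgeR quasi-likelihood, Benjamini-Hochberg adjusted). For Mrc1 and C1qa the exact permutation test over libraries gave p = 0.1 (two-sided), the smallest p that 3 against 3 libraries allow. Without ApcMin replicate 1 the log2 fold changes were 0.34 ± 0.15 SE for Mrc1 and 0.40 ± 0.17 SE for C1qa.

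Adgre1, the surface antigen most often used to stain mouse macrophages, was at 2.10, 1.64 and 1.50 log2 CPM in Apc1322T and at 3.36, 2.00 and 2.66 log2 CPM in ApcMin. ApcMin replicate 2 was just below Apc1322T replicate 1, and the other 2 ApcMin libraries were above all Apc1322T libraries. Its fold change of 2.04 (log2 1.03 ± 0.38 SE) was the largest of the macrophage group. Cd68 was at 2.67, 3.02 and 2.74 log2 CPM in Apc1322T and at 4.13, 2.74 and 3.12 log2 CPM in ApcMin. Its ApcMin replicate 2 was level with Apc1322T replicate 3, and only ApcMin replicate 1 was clearly apart. Cd68 had a log2 fold change of 0.65 ± 0.37 SE with all libraries and of 0.13 ± 0.22 SE without ApcMin replicate 1. For Adgre1 the value without that library was 0.61 ± 0.32 SE.

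Lyz2, an enzyme that cuts bacterial cell walls, was at 5.60, 5.84 and 5.86 log2 CPM in Apc1322T and at 8.02, 5.66 and 6.09 log2 CPM in ApcMin adenomas. ApcMin replicate 1 stood 1.93 log2 units above the next library, the widest such gap of any member, while ApcMin replicate 2 lay inside the Apc1322T range. In CPM, that library held 260.2 against 48.5 to 68.0 in the other 5. The log2 fold change was 1.21 ± 0.62 SE, and 0.12 ± 0.16 SE without that library. Its near-identical neighbour Lyz1 did not share this peak: Lyz1 was at 10.12 log2 CPM in ApcMin replicate 1, close to 10.08 in ApcMin replicate 2 and below 10.75 in ApcMin replicate 3. The log2 ratio of Lyz2 to Lyz1 was -2.10 in ApcMin replicate 1 and between -4.67 and -3.54 in the other libraries.

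Itgam, the integrin chain that lets myeloid cells adhere and take up complement-coated particles, was at 3.28, 2.63 and 3.26 log2 CPM in Apc1322T and at 4.61, 2.80 and 3.59 log2 CPM in ApcMin. ApcMin replicate 2 lay below 2 of the 3 Apc1322T libraries. The log2 fold change was 0.77 ± 0.47 SE, and 0.16 ± 0.32 SE without ApcMin replicate 1. Itgb2, which encodes the beta chain that pairs with Itgam, was at 4.53 log2 CPM in ApcMin replicate 1 and between 2.71 and 3.26 log2 CPM elsewhere. Its log2 fold change was 0.66 ± 0.50 SE, and -0.15 ± 0.23 SE without that library.

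S100a8 was at 3.05, 0.39 and 1.39 log2 CPM in Apc1322T and at 4.44, 0.61 and 1.51 log2 CPM in ApcMin adenomas. S100a9 was at 3.72, 1.35 and 2.05 log2 CPM in Apc1322T and at 5.44, 1.37 and 2.47 log2 CPM in ApcMin. For both genes ApcMin replicate 1 was highest and Apc1322T replicate 1 second, and the remaining libraries of the genotypes were intermixed. The spread within Apc1322T alone was 2.66 log2 units for S100a8 and 2.38 for S100a9, larger than the genotype difference of either. The log2 fold changes were 1.11 ± 1.15 SE for S100a8 and 1.38 ± 1.15 SE for S100a9, with adjusted p = 0.651 and 0.572 by edgeR quasi-likelihood, Benjamini-Hochberg adjusted. Without ApcMin replicate 1 both turned round, to -0.92 ± 0.86 SE for S100a8 and -0.72 ± 0.81 SE for S100a9. Without Apc1322T replicate 1 they were 2.21 ± 1.43 SE and 2.40 ± 1.48 SE. With limma-voom the values were 0.66 and 0.83, and the differences of mean log2 CPM were 0.58 and 0.72. Without both replicate 1 libraries, an alternative chosen after seeing the data, they were 0.16 ± 0.53 SE and 0.28 ± 0.48 SE.

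**Figure D2:**
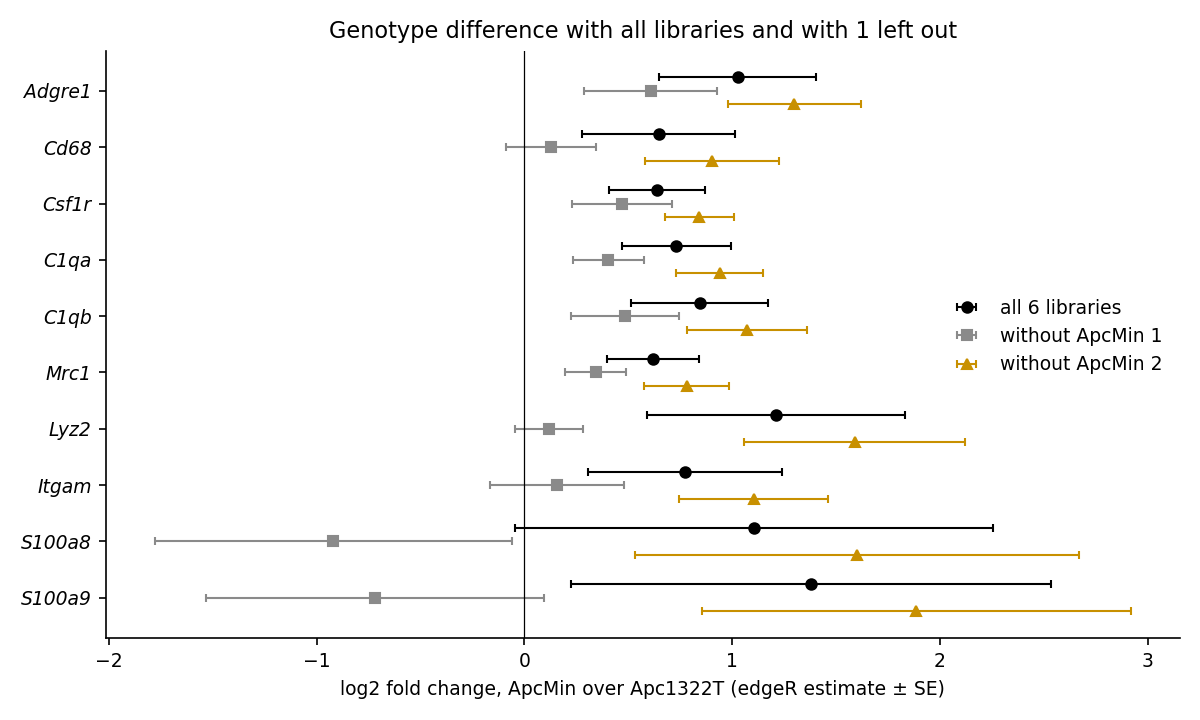
Log2 fold change of ApcMin over Apc1322T for the 10 genes (points, edgeR estimates; bars, SE), with all 6 libraries, without ApcMin replicate 1 and without ApcMin replicate 2. Leaving out ApcMin replicate 1 moves every estimate down and takes S100a8 and S100a9 below 0, at -0.92 and -0.72, whereas leaving out ApcMin replicate 2 moves every estimate up.

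The calprotectin genes spread over a wider range of levels than the macrophage genes. Over the 6 libraries the 6 macrophage genes ranged over 1.15 to 1.86 log2 units each, and S100a8 and S100a9 over 4.05 and 4.09. The log2 ratio of S100a9 to S100a8 stayed within 0.33 log2 units, at 0.67 to 1.00, whereas that of S100a9 to Csf1r spanned 3.25 log2 units. S100a9 exceeded Csf1r in CPM in ApcMin replicate 1, with a log2 ratio of 0.23, and was below it elsewhere, down to -3.02 in ApcMin replicate 2. Mrc1 and Csf1r kept a ratio within 0.47 log2 units. The order of the ApcMin libraries was replicate 1, then 3, then 2 for all 10 members. In Apc1322T adenomas, replicate 1 was the highest library for 8 of the 10 members and the lowest for the other two, Cd68 and Lyz2.

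Likeness to a member was measured as the root mean square difference between centred log2 CPM values over the 6 libraries, where 0 means the same pattern. The gene most like S100a9 of the 16536 tested was S100a8, at 0.14 log2 units. Next came Il6, a cytokine of inflammation, at 0.25, Retnlg, a neutrophil secreted protein, at 0.41, and the neutrophil chemokines Cxcl1 and Cxcl2, each at 0.45. Il6 was at 4.94 log2 CPM in ApcMin replicate 1 and 2.97 in Apc1322T replicate 1, against 0.82 to 1.50 in the other 4 libraries. The genes most like Csf1r were Zfp729a at 0.07, Ccbe1 and Stab1 at 0.08, Mpdz at 0.11 and Osmr at 0.11. Stab1, a scavenger receptor of macrophages and sinusoidal endothelium, had a log2 fold change of 0.63 ± 0.24 SE, and of 0.39 ± 0.21 SE without ApcMin replicate 1. Among the members, C1qa and Mrc1 were the closest pair, at 0.09. S100a8 and S100a9 followed at 0.14, then C1qa and C1qb, also at 0.14, and C1qa and Csf1r at 0.15. With 6 libraries these ranks describe likeness only.

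**Figure D3:**
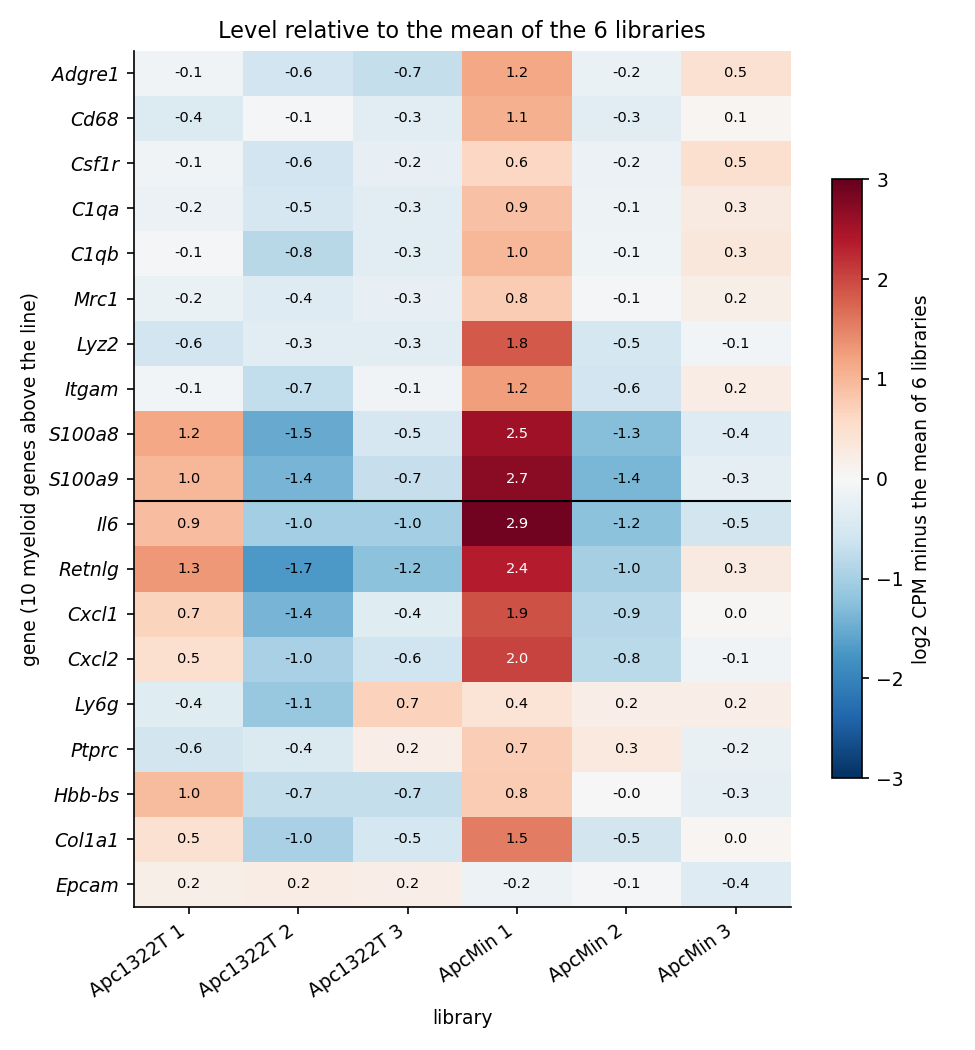
Log2 CPM minus the mean of the 6 libraries for the 10 myeloid genes (above the line) and 9 genes for comparison, with libraries in columns and red for above the mean. S100a8, S100a9, Il6, Retnlg, Cxcl1 and Cxcl2 are red in both replicate 1 libraries and pale or blue in the other 4, whereas the macrophage genes are above the mean in ApcMin replicates 1 and 3, and Ly6g is highest in Apc1322T replicate 3.

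Further macrophage genes gave a similar picture with more exceptions. Of 20 tested, 16 were higher and 4 lower in ApcMin, with a median log2 fold change of 0.61; at an unadjusted p under 0.05, 3 were higher and none lower. C1qc, the third C1q chain, was at 0.74 ± 0.28 SE on the log2 scale, close to C1qa and C1qb. In this list 6 genes were higher and none lower without overlap between genotypes, beside 11% and 9.96% of all genes. Fcgr1, a high-affinity antibody receptor, and Ms4a7 were named from among those 6. Their log2 fold changes were 1.27 ± 0.44 SE and 0.96 ± 0.35 SE. Vsig4, a marker of some resident macrophages, had no counts in any library, which allows at most 0.0837 to 0.142 CPM by counting error. Without ApcMin replicate 1 the counts were 13 higher and 7 lower, with a median of 0.20 and 1 in each direction at that p threshold. C1qc was then at 0.42, Fcgr1 at 0.75 and Ms4a7 at 0.60 on the log2 scale. Without both replicate 1 libraries, a setting chosen after seeing the data, 11 were higher and 9 lower, with a median of 0.23. At that p threshold 1 was higher and 3 lower, beside 10.7% and 11.9% of all genes. Of 6 monocyte genes, 5 were higher and 1 lower, with 1 in each direction at an unadjusted p under 0.05. Without ApcMin replicate 1, 2 were higher and 4 lower, with a median of -0.17. Without both replicate 1 libraries the split was again 2 and 4, with a median of -0.33. Plac8 made up most of the summed level of the monocyte genes. With all libraries it was the one that was lower, at -0.49 ± 0.19 SE. Plac8 was at 742.3 to 1424 CPM, near the epithelial gene Cdh1 at 850.7 to 1174 CPM. F13a1, the next monocyte gene, reached at most 53.68 CPM. Which cells made the Plac8 RNA was not tested.

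Of the macrophage activation genes, 7 of the 8 tested were highest in the same library. All 8 tested were higher in ApcMin, with a median log2 fold change of 1.27. Without ApcMin replicate 1 the split was 3 higher and 5 lower with a median of -0.06. Without both replicate 1 libraries, a setting chosen after seeing the data, the split was 5 higher and 3 lower with a median of 0.12. Il1b, which encodes an inflammatory cytokine, was at 6.56 log2 CPM in ApcMin replicate 1, against 2.89 to 3.91 elsewhere. Its log2 fold change was 1.47 ± 0.99 SE with all libraries and -0.66 ± 0.20 SE without that one. Arg1, an arginine-degrading enzyme, was the 1 gene of this list with an unadjusted p under 0.05, at 3.77, 2.95 and 2.57 log2 CPM in Apc1322T and 5.49, 4.76 and 3.38 log2 CPM in ApcMin.

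Most other neutrophil genes, 11 of the 15 tested, were highest in ApcMin replicate 1 like S100a8 and S100a9. Over all tested genes that share was 15.2%. The remaining tested genes of the list were highest in other libraries. Of 20 listed, 15 were tested, 13 of them higher and 2 lower in ApcMin. Their median log2 fold change was 0.84, with none at an unadjusted p under 0.05. Without ApcMin replicate 1 there were 7 higher and 8 lower with a median of -0.08. Without both replicate 1 libraries, a setting chosen after seeing the data, 10 of 14 tested were higher and 4 lower, with a median of 0.34. Csf3r, the receptor for the neutrophil growth factor, was at 15.95 CPM in ApcMin replicate 1 and from 1.46 to 3.68 CPM elsewhere. Ly6g, the surface marker used to sort mouse neutrophils, was low throughout, at 1.04, 0.28 and 2.11 log2 CPM in Apc1322T and 1.81, 1.61 and 1.61 in ApcMin, with its highest value in Apc1322T replicate 3. Cxcr1, Camp, Ngp and Mpo had too few counts to be tested, and Elane had none. Lcn2 and Ltf, which intestinal epithelium also makes, were the 2 that were lower.

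Most genes of the lists for recruiting and sustaining these cells were higher in ApcMin adenomas, and most were lower without ApcMin replicate 1. Among 7 genes of the colony stimulating factor system, 6 were higher and 1 lower in ApcMin, with 2 higher and 1 lower at an unadjusted p under 0.05 and a median log2 fold change of 0.37. The split was 3 higher and 4 lower without ApcMin replicate 1, with none higher and 1 lower at that threshold and a median of -0.37. Csf1 and Il34 both encode ligands of Csf1r, and they differed in opposite directions without overlap between the genotypes. Csf1 was at 3.33, 3.34 and 3.49 log2 CPM in Apc1322T and at 3.85, 3.78 and 3.64 in ApcMin, a log2 fold change of 0.37 ± 0.13 SE. Il34 was at 3.13, 2.81 and 3.05 log2 CPM in Apc1322T and at 2.47, 2.57 and 2.70 in ApcMin, a log2 fold change of -0.42 ± 0.17 SE. Neither passed the adjusted threshold (adjusted p = 0.288 and 0.318, edgeR quasi-likelihood, Benjamini-Hochberg adjusted). They kept these directions without ApcMin replicate 1, at 0.33 and -0.37.

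Of 11 chemokines that attract myeloid cells, 10 were higher in ApcMin and 1 lower, with a median log2 fold change of 0.96. Without ApcMin replicate 1 this became 1 higher and 10 lower, with a median of -0.51. Without both replicate 1 libraries, a setting chosen after seeing the data, 4 were higher and 7 lower, with a median of -0.66. The monocyte attractant Ccl2 was at 4.98 log2 CPM in ApcMin replicate 1 and at 2.03 to 3.55 in the others. Cx3cl1, a membrane-bound chemokine, was lower in ApcMin at -0.56 ± 0.20 SE and was the only one with an unadjusted p under 0.05.

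Of 11 complement genes other than C1qa and C1qb, 9 were higher and 2 lower, with 7 higher and 1 lower at an unadjusted p under 0.05 and a median log2 fold change of 0.94. Without ApcMin replicate 1 the split was again 9 and 2, with 4 higher and 1 lower at that threshold and a median of 0.42. In this list 6 genes were higher and none lower without overlap, beside 11% and 9.96% of all genes. C1s1, a protease of the C1 complex, and Cfp (properdin) were named from among those 6. Their log2 fold changes were 1.06 ± 0.26 SE and 1.13 ± 0.40 SE, and 0.82 and 0.52 without ApcMin replicate 1. Cfb, the lower gene at that threshold, was at -0.36 ± 0.14 SE. Of the 4 calprotectin receptor genes, Tlr4 at 0.83 ± 0.22 SE and Ager at 1.06 ± 0.33 SE were higher without overlap. Ly96 was lower without overlap, at -0.41 ± 0.21 SE, and Cd14 was at -0.03 ± 0.48 SE. Cd14 was at 6.02 log2 CPM in ApcMin replicate 1, at 4.28 and 4.41 in ApcMin replicates 2 and 3, and at 5.02 to 5.34 in Apc1322T. Without ApcMin replicate 1, 2 of these receptor genes were higher and 2 lower, with a median of 0.17. The other 5 genes of the beta2 integrin system were all higher in ApcMin, 1 of them at an unadjusted p under 0.05, with a median of 0.37 and with 2 higher and 3 lower without ApcMin replicate 1.

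**Figure D4:**
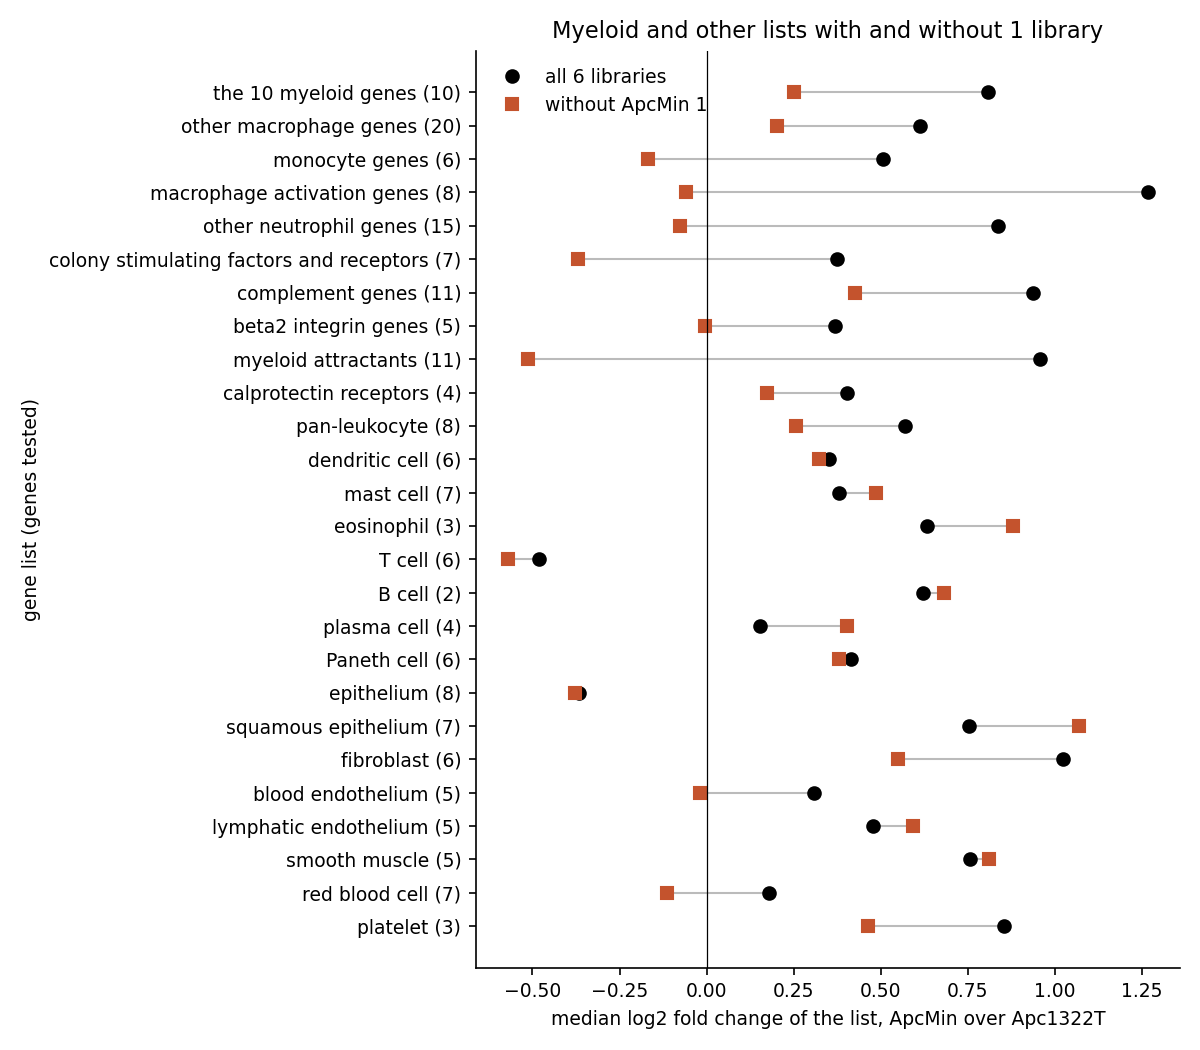
Median log2 fold change (ApcMin over Apc1322T) of each gene list with all 6 libraries (black) and without ApcMin replicate 1 (red), with the number of genes tested in brackets (6 red blood cell genes without that library). The 10 myeloid genes move from 0.81 to 0.25 and the myeloid attractants from 0.96 to -0.51, while complement genes move from 0.94 to 0.42 and epithelial genes stay at -0.37 and -0.38.

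All 8 pan-leukocyte genes were higher in ApcMin (median log2 fold change 0.57, or 0.26 without ApcMin replicate 1, none with all libraries at an unadjusted p under 0.05), and 7 of the 8 were highest in ApcMin replicate 1. Relative to Ptprc, which encodes the leukocyte antigen CD45, the mean log2 level of the 10 members differed between genotypes by -0.02 to 0.39. Relative to Epcam, an epithelial gene, it differed by 0.92 to 1.33. All 8 epithelial genes were lower in ApcMin, 5 of them at an unadjusted p under 0.05. Epcam was at 11.36, 11.41 and 11.40 log2 CPM in Apc1322T and at 11.04, 11.12 and 10.81 in ApcMin. All 6 fibroblast genes were higher, 3 at that threshold. The fibroblast genes summed to 2402 CPM in ApcMin replicate 1, 1111 CPM in Apc1322T replicate 1 and 453.9 to 1010 CPM in the others. Their part in the members' differences was not tested.

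Red blood cell genes summed to 1067 CPM in Apc1322T replicate 1 and 985.1 CPM in ApcMin replicate 1, the libraries with the most S100a8 and S100a9, against 360.6 to 510.2 CPM in the other 4. How far blood left in the tissue contributed to the calprotectin genes was not tested. Other immune cells were distributed differently: mast cell genes summed highest in ApcMin replicate 2, at 1240 CPM, and lowest in ApcMin replicate 3, at 116.3 CPM. T cell genes were lower in ApcMin for 5 of 6, with a median log2 fold change of -0.48 and none at an unadjusted p under 0.05. Cd3e was at 0.14, 2.01 and 2.35 log2 CPM in Apc1322T and at 1.72, 1.77 and 0.88 in ApcMin. Of 6 dendritic cell genes tested, 4 were higher and 2 lower. Krt14, a keratin of squamous epithelium, was the 1 gene of the whole table with an adjusted p under 0.05, at a log2 fold change of 2.51 ± 0.18 SE (adjusted p = 0.0485 by edgeR quasi-likelihood, Benjamini-Hochberg adjusted).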

How the data were processed

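RNA-seq was done on 6 libraries of mouse intestinal adenomas, 3 per genotype, as single-end stranded reads of 50 bases. The authors quantified transcripts with Salmon against a GRCm38 transcriptome, and deposited estimated counts per gene for all samples in 1 table. Salmon divides reads that fit several transcripts by estimation, and 31.1% of the deposited values were not whole numbers (tolerance 0.001). Estimated counts were rounded. Identifiers were matched to GENCODE M21 (34582 of 34866). Genes were kept by edgeR's filterByExpr (minimum count 10, total 15), scaled by TMM and tested with edgeR 4.0.16 (R 4.3.3), glmQLFit with robust estimation and glmQLFTest, ApcMin against Apc1322T with no covariate. Adjusted p-values cover all 16536 genes, with 0.01 as threshold as in the study. Values per library are log2 CPM with a prior count of 2. Exact permutation tests over libraries were two-sided. The numbers of libraries limit the precision, and floors of 3 counts cover counting error only. The edgeR and DESeq2 scripts were tested on simulated data.

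The members and gene lists were chosen with earlier results of these data known. Named were all members, Lyz1, C1qc, Itgb2, Csf1, Il34, markers of other cells, in each list the 2 genes with the largest difference among those at an unadjusted p under 0.05 without overlap, and the 5 genes most like Csf1r and S100a9. Some genes were named after their values were seen, namely Il1b, Arg1, Ccl2, Cx3cl1, Cfb, Plac8, Lcn2, Ltf, Ly96, Cd14, Vsig4 and the untested neutrophil genes. Same-numbered replicates had correlations of deviations from the genotype mean of -0.01, 0.16 and -0.29 over the tested genes. These values did not show a pairing by number, but they cannot exclude a batch shared by same-numbered samples. Alternatives were DESeq2 1.42.0, limma-voom (limma 3.58.1), other scalings and filters, each library left out, and the replicate number as a block.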

Additional observations from a re-analysis of the deposited data

How the results depend on the processing

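Of the 10 members, none was called at an adjusted p under 0.01 under any alternative, including DESeq2. All 10 stayed higher in ApcMin under each alternative except 1: without ApcMin replicate 1, S100a8 was at -0.919 and S100a9 at -0.718 on the log2 scale. Over the libraries left out singly they reached up to 2.208 and 2.404, without Apc1322T replicate 1. Leaving out 1 library at a time gave 0 to 8 members at an unadjusted p under 0.05 and a median log2 fold change of 0.251 to 1.088. The lowest count came without Apc1322T replicate 2, without Apc1322T replicate 3 or without ApcMin replicate 1. In those settings 3.93% to 6.78% of all genes were higher and 2.99% to 4.97% lower at that threshold. The highest count came without ApcMin replicate 2, beside 6.53% higher and 6.07% lower. Without ApcMin replicate 3 the member count was 2, without both replicate 1 libraries (chosen after seeing the data) also 2, and with limma-voom 3. The shares of all genes were then 5.2%, 10.7% and 6.89% higher, and 4.67%, 11.9% and 7.07% lower, in that order. Over all genes, DESeq2 called 194 at an adjusted p under 0.01, and 1 passed with no filter on low counts; 1 passed 0.05. The cause was not tested. Leaving out single libraries gave 0 to 1 calls at 0.01 and 1180 to 4117 genes at an unadjusted p under 0.05, and leaving out both replicate 1 libraries 3747. With library totals alone the median of all genes moved to 0.175 and the members' median to 0.962, so members are read relative to that shift. In the fit with the replicate block, 5 members had an unadjusted p under 0.05 and the members' median was 0.652. Of all genes, 6.48% were higher and 6.3% lower at that threshold in this fit. S100a8 was then at 0.627, S100a9 at 0.771 and Lyz2 at 0.792, and no call changed. The labels link same-numbered samples by the number alone. Without Apc1322T replicate 2 S100a8 was at 0.69. Depth limits the genes with few counts, such as Elane, Mpo and Vsig4.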
